A study of Bos taurus with 21 samples.

Results

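Osteopontin, encoded by *SPP1*, was examined together with 6 further genes of secreted matrix glycoproteins (*SPARC*, *POSTN*, *THBS1*, *THBS2*, *FN1* and *TNC*) in foetal muscle of 2 cattle breeds. The members were all non-control probes whose transcript accession belonged to 1 of these 7 genes in the cattle annotation. *SPP1* was selected on its measured intensity in these same arrays, which goes down steeply over gestation, so its stage values are given as a description without a test. Of the 7 genes, 5 had a matched probe, among 12538 genes named on the array, with 29 probes of 43653. These were 1 probe of *SPP1*, 3 of *POSTN*, 6 of *THBS1*, 6 of *SPARC* and 13 of *FN1*. *THBS2* and *TNC* were not analysed here.

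Matricellular proteins are secreted into the extracellular matrix but serve cell signalling more than structure. They bind integrins, CD44, CD36 or CD47 on the cell surface, bind collagen and growth factors, and are typically abundant while tissues form or are repaired and scarce in resting adult tissue. In muscle they are made by connective tissue cells, by muscle precursor cells and by macrophages, and fibronectin, which is also a building block of the matrix, anchors the cells to it.

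Each of 21 foetuses gave RNA for its own array, a bovine 4x44K design read in a single colour. The Blonde d'Aquitaine (BA), a heavily muscled beef breed that carries a *MSTN* mutation, was represented by 3, 2, 3 and 2 foetuses at 110, 180, 210 and 260 days post conception (dpc), and the Charolais (CH), the comparison breed, by 2, 3, 3 and 3. No foetus received a treatment, and the BA foetuses were not genotyped for *MSTN*. The BA foetuses were 3 males and 7 females, the CH foetuses 5 males and 6 females, and each breed descended from 2 sires. The BA foetuses of 180 and 260 dpc and the CH foetuses of 110 dpc were all female. At 210 dpc 1 of 3 BA and 2 of 3 CH foetuses were male. The BA foetuses of 180 dpc shared 1 sire, as did those of 260 dpc and the CH foetuses of 210 dpc. Breed and sire cannot be told apart, and sex was not balanced between the breeds within stages. The labels name the muscle Longissimus thoracis, whereas the study's methods name *m. Semitendinosus*.

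Levels are given as normalized log2 intensity, with 0 set at the median probe of an ordinary array and a step of 1 equal to a doubling, and each gene was followed by its brightest probe. An array had 29017 to 34502 probes well above background. Markers of skeletal muscle were bright, which does not tell the 2 named muscles apart: *ACTA1*, the actin of the muscle fibre, averaged 9.34 at 110 dpc and 11.91 at 260 dpc, and *CKM*, muscle creatine kinase, 8.21 and 11.32. Probes entered the tests if 7 or more of the 8 groups had a mean over 0, which held for 20132 probes and for 21 of the 29 member probes. Differences between groups were tested with limma, with Benjamini-Hochberg adjustment and a threshold of 0.05.

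*SPP1* encodes osteopontin, a phosphorylated glycoprotein that binds αv integrins and CD44. At 110 dpc its level was 4.94, 3.68 and 4.46 in the BA foetuses and 4.93 and 4.69 in the CH foetuses. At 180 dpc it was 3.74 and 3.69 in BA against 3.25, 2.71 and 3.59 in CH. The 110 and 180 dpc foetuses overlapped, because 1 BA foetus at 110 dpc lay below both BA foetuses of 180 dpc. At 210 dpc the level was 0.83, 0.72 and 0.52 in BA and 1.81, 2.20 and 1.16 in CH. At 260 dpc it was −1.65 and −1.43 in BA and −1.26, −1.86 and −0.99 in CH. Every foetus of 210 dpc lay below every foetus of 180 dpc, and every foetus of 260 dpc lay below every foetus of 210 dpc.

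**Figure D1:**
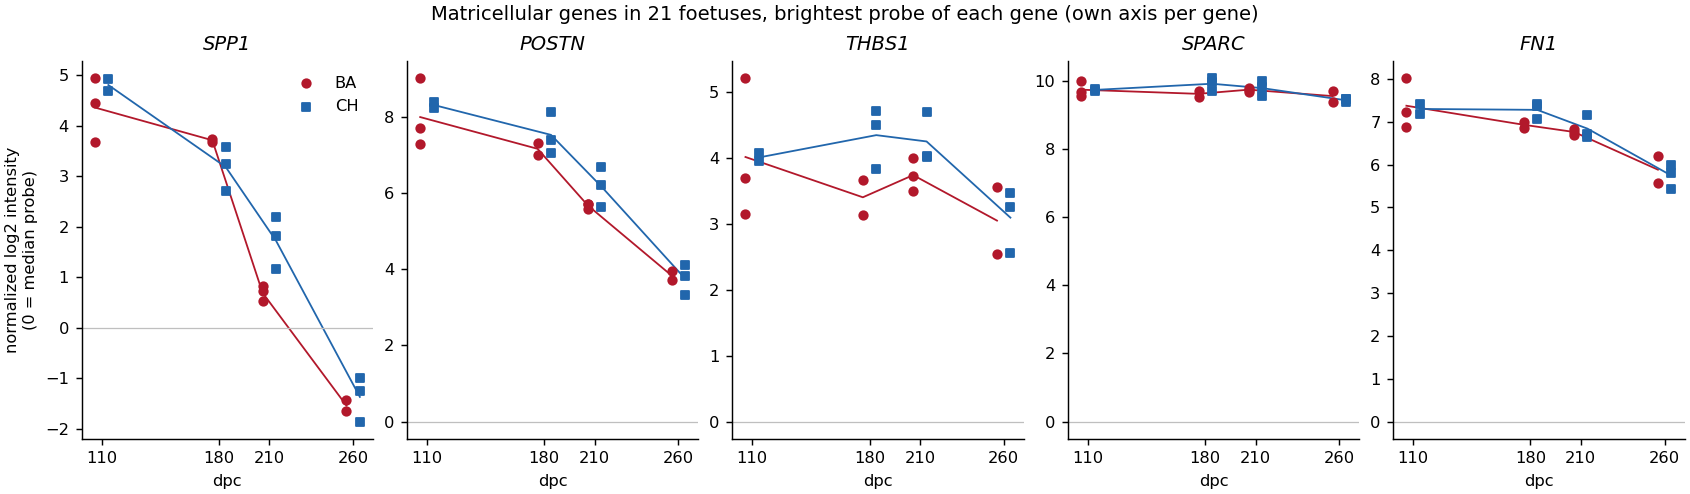
Normalized log2 intensity (vertical axis, 0 = median probe) of the brightest probe of each gene against gestational age in dpc, with 1 point per foetus (BA circles, CH squares) and lines through the group means. *SPP1* goes from 3.68 to 4.94 at 110 dpc down to −1.86 to −0.99 at 260 dpc, *POSTN* goes down at each stage, and *SPARC* stays between 9.37 and 10.08.

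As group means ± SD, *SPP1* stood at 4.36 ± 0.64 (n = 3) in BA and 4.81 ± 0.17 (n = 2) in CH at 110 dpc. At 260 dpc it stood at −1.54 ± 0.16 (n = 2) in BA and −1.37 ± 0.44 (n = 3) in CH. The mean processed intensity was 2855 units in BA and 3318 in CH at the first stage, against 32.4 and 37.1 units at the last. The difference of 260 from 110 dpc, averaged over the breeds, was −6.04 (SE 0.256), or 65.8-fold lower. It was 59.8-fold in BA and 72.3-fold in CH. The step from 110 to 180 dpc was −1.14, that from 180 to 210 dpc −2.24 and that from 210 to 260 dpc −2.66. Ordered from the most negative difference of 260 from 110 dpc, *SPP1* ranked 14 among all 43653 probes and 2 among the 26225 that exceeded background on all arrays. The *SPP1* probe was itself well above background on 21 of 21 arrays, although its mean at 260 dpc was under the median probe, so it did not pass the filter. With normexp background correction of the median signals, which adds an offset of 50 units, the difference was −4.62. That offset is larger than the mean processed intensities at 260 dpc. How much of the smaller difference came from the offset was not tested. In bulk muscle RNA, fewer cells of a type and less RNA per cell cannot be told apart.

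Markers of the cell types known for osteopontin moved in different directions over gestation. Of the 6 bone markers, 5 had a probe. *IBSP*, bone sialoprotein, was well above background on 1 of 21 arrays and *PHEX*, an osteoblast and osteocyte endopeptidase, on 0. *BGLAP*, *ALPL* and *SP7* were well above background on all 21. *BGLAP*, osteocalcin, rose by 1.22 (adjusted p = 2.35e-06), while *ALPL* differed by −0.11 (limma adjusted p = 0.528). *SP7*, which was under the filter, differed by 0.15. The mean level of the 5 bone markers was −0.79 to −0.30 at 110 dpc and −0.71 to −0.47 at 260 dpc. Of the 7 macrophage markers with a probe, 4 were tested, of which *CSF1R*, the receptor of macrophage colony stimulating factor, fell by 1.42 (adjusted p = 0.000129), *AIF1* and *TYROBP* also fell, and the lysosomal *CD68* rose by 0.83. The mean level of these 7 markers was −0.16 to 1.56 at 110 dpc and −0.53 to −0.02 at 260 dpc. Their part in the level of *SPP1* was not tested.

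The breed was not used to choose *SPP1*, so its breed difference could be tested, in a fit over all probes because the gene was under the filter. Averaged over the stages, BA minus CH was −0.28 (SE 0.177, limma adjusted p = 0.695), with a 95% interval from −0.66 to 0.10, and a two-sided exact permutation test that exchanged breeds only among foetuses of one age gave p = 0.207. In this fit over all probes 0.0733% of probes passed in the average comparison. At single stages the difference was −0.45 at 110 dpc, 0.53 at 180 dpc, −1.03 at 210 dpc and −0.17 at 260 dpc.

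The breeds did not overlap in *SPP1* at 180 dpc, where both BA foetuses lay above all CH foetuses, nor at 210 dpc, where all BA foetuses lay below all CH foetuses. At 210 dpc the level was 0.69 ± 0.16 in BA and 1.72 ± 0.52 in CH (n = 3 each), a 2.04-fold difference with a 95% interval from −1.72 to −0.34 on the log2 scale. Its unadjusted limma p was 0.00611, but the p adjusted over all probes was 0.911. The exact permutation p, two-sided, was 0.2 at 180 dpc and 0.1 at 210 dpc, the latter the smallest that 3 against 3 foetuses allow. The share of all probes whose breeds lay apart at a stage was not counted, so no such separation is weighed against the array. In the fits over all probes, the share of probes that passed was 0.0206% at 110 dpc, 0.0275% at 180 dpc, 0.00229% at 210 dpc and 0.0137% at 260 dpc. On the slides that carried a 210 dpc foetus of each breed, BA minus CH was −1.37 and −1.09. The sign was the opposite at 180 dpc, where 1 such slide gave 0.98. The breed difference at 210 dpc differed from that at 180 dpc by −1.56 (SE 0.486, limma adjusted p = 1). The difference therefore did not pass at any stage once all probes were counted. The breeds' changes from 110 to 260 dpc differed by 0.27 (SE 0.512, limma adjusted p = 0.999), a comparison in which 0.00687% of all probes passed.

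*POSTN* encodes periostin, an integrin ligand of collagen-rich connective tissue. Its level in BA was 9.02, 7.28 and 7.70 at 110 dpc, 7.0 and 7.33 at 180 dpc, 5.73, 5.72 and 5.58 at 210 dpc, and 3.96 and 3.71 at 260 dpc. In CH it was 8.25 and 8.39, then 7.40, 7.06 and 8.14, then 5.63, 6.21 and 6.70, and last 3.33, 3.82 and 4.11. As in *SPP1*, no foetus of 210 dpc reached the lowest of 180 dpc and none of 260 dpc reached the lowest of 210 dpc.

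From 110 to 260 dpc *POSTN* fell by 4.37 (SE 0.289, limma adjusted p = 8.25e-10), 20.6-fold, with −4.17 in BA and −4.57 in CH. The step from 110 to 180 dpc was −0.81 (adjusted p = 0.0508), and it passed without BA replicate 2 or 3 of 110 dpc, CH replicate 3 of 180 dpc, or CH replicate 1 or 3 of 210 dpc, at limma adjusted p between 0.0161 and 0.0455. *POSTN* then fell by 1.42 from 180 to 210 dpc (adjusted p = 0.00384) and by 2.13 from 210 to 260 dpc (adjusted p = 1.07e-05). The other 2 probes of the gene gave −4.87 and −4.94. Averaged over the stages BA minus CH was −0.28 (SE 0.199, limma adjusted p = 0.596), and the exact permutation p was 0.21. The breeds overlapped at all 4 stages.

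*THBS1* encodes thrombospondin-1, a trimeric glycoprotein that binds CD36 and CD47 and can release active TGF-beta from its latent form. Its level in BA was 5.21, 3.15 and 3.69 at 110 dpc, 3.68 and 3.14 at 180 dpc, 3.73, 3.50 and 4.01 at 210 dpc, and 3.56 and 2.54 at 260 dpc. In CH it was 3.95 and 4.07, then 4.50, 3.83 and 4.72, then 4.02, 4.04 and 4.71, and last 3.26, 2.56 and 3.47. Neighbouring stages overlapped throughout, and the spread among the BA foetuses of 110 dpc (SD 1.07) was the widest of the 8 groups. Over gestation *THBS1* fell by 0.94 (SE 0.331, limma adjusted p = 0.0196), 1.92-fold, and by 0.92 from 210 to 260 dpc (adjusted p = 0.0241). Without BA replicate 2 of 260 dpc the difference of 260 from 110 dpc was −0.69 (adjusted p = 0.12), without CH replicate 2 of 110 dpc it was −0.91 (adjusted p = 0.0535), and among female foetuses alone it was −0.32 (adjusted p = 0.39). The call from 210 to 260 dpc was lost, at limma adjusted p between 0.0525 and 0.156, without BA replicate 3 or CH replicate 3 of 210 dpc, or without BA replicate 2 or CH replicate 2 of 260 dpc.

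The probes of *THBS1* disagreed. Of its 3 tested probes, 2 fell from 110 to 260 dpc, by 0.94 and 1.03, but the probe A_73_P079736 rose by 1.32 (SE 0.181, limma adjusted p = 5.88e-06). That probe went from 0.20 to 0.97 at 110 dpc to 1.73 to 2.20 at 260 dpc, so its foetuses of these stages did not overlap. From 210 to 260 dpc the 3 tested probes also passed in both directions, 2 as lower and this probe as higher, by 0.59. The mean over the 3 tested probes differed by −0.22 (adjusted p = 0.466). The other 3 probes were under the filter and well above background on 20, 15 and 10 of 21 arrays, and their negative differences are not counted for a direction.

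In the breed comparison *THBS1* had the most negative average of the 5 genes, with BA minus CH at −0.37 (SE 0.228, limma adjusted p = 0.525) and an exact permutation p of 0.169. All BA foetuses lay below all CH foetuses at 180 dpc (−0.94, SE 0.468, limma adjusted p = 0.799) and at 210 dpc (−0.51, SE 0.418, limma adjusted p = 1). The exact permutation p, two-sided, was 0.2 at 180 dpc and 0.1 at 210 dpc, and in neither design can it go below 0.1. The mean of the fibroblast and connective tissue markers also separated the breeds at 180 dpc, at 7.15 to 7.18 in BA and 7.46 to 7.98 in CH, and overlapped at 210 dpc, at 7.30 to 7.45 and 7.15 to 7.69. The part of these markers in the breed differences of *THBS1*, *SPARC* and *FN1* at 180 dpc was not tested. On the slide that held both breeds at 180 dpc the difference was −0.69, and on the 2 slides at 210 dpc it was −0.31 and −0.52.

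*SPARC* encodes osteonectin, which binds collagen and loosens the contact of cells with the matrix. Its level was 9.56 to 9.99 over the 5 foetuses of 110 dpc, 9.54 to 10.08 at 180 dpc, 9.56 to 10 at 210 dpc and 9.37 to 9.71 at 260 dpc. All neighbouring stages overlapped, and the level of the first 3 stages differed by less than the spread among foetuses. *SPARC* fell by 0.27 from 210 to 260 dpc (SE 0.101, limma adjusted p = 0.0366), a call that was lost, at adjusted p between 0.0503 and 0.208, without BA replicate 2 or 3 or CH replicate 2 or 3 of 210 dpc, or without BA replicate 2 or CH replicate 1, 2 or 3 of 260 dpc. The whole difference of 260 from 110 dpc was −0.25 (SE 0.107, adjusted p = 0.053, 95% interval −0.47 to −0.02). All 6 probes were negative, from −0.65 to −0.25, and 5 of them passed, so that the brightest probe was the only 1 that did not. The size depended on the scaling: it was −0.15 with each array centred on its median and −0.76 after quantile normalization. Averaged over the stages BA minus CH was −0.05 (SE 0.0735, limma adjusted p = 0.801; exact permutation p = 0.489). At 180 dpc both BA foetuses lay at or below 9.71 and all CH foetuses at or above 9.72. The difference was −0.30 (SE 0.151, limma adjusted p = 0.803, two-sided exact permutation p = 0.2). The connective tissue markers lay apart in the same direction (7.15 to 7.18 in BA, 7.46 to 7.98 in CH). On the slide that held both breeds at 180 dpc, BA minus CH of *SPARC* was only −0.01.

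*FN1* encodes fibronectin, the ligand of the α5β1 integrin and the scaffold on which other matrix proteins assemble. Its level in BA was 8.02, 6.87 and 7.23 at 110 dpc, 7.01 and 6.85 at 180 dpc, 6.69, 6.76 and 6.83 at 210 dpc, and 6.20 and 5.56 at 260 dpc. In CH it was 7.19 and 7.41, then 7.41, 7.07 and 7.37, then 6.71, 6.64 and 7.17, and last 5.43, 6.0 and 5.80. The first 3 stages overlapped, while every foetus of 260 dpc lay below every foetus of 210 dpc. *FN1* fell by 1.52 from 110 to 260 dpc (SE 0.19, limma adjusted p = 2.04e-06), 2.88-fold. Most of this lay between 210 and 260 dpc, where it fell by 0.99 (adjusted p = 0.0003). The steps before were −0.23 (adjusted p = 0.414) and −0.30 (adjusted p = 0.322). The 13 probes differed by −1.51 to −2.10, and all 9 tested probes passed. Averaged over the stages BA minus CH was −0.05 (SE 0.131, limma adjusted p = 0.895; exact permutation p = 0.713). At 180 dpc both BA foetuses lay below all CH foetuses, with a difference of −0.35 (SE 0.269, limma adjusted p = 0.876, two-sided exact permutation p = 0.2). They also did so in the connective tissue markers (7.15 to 7.18 against 7.46 to 7.98). On the slide that held both breeds at 180 dpc, BA minus CH of *FN1* was −0.21.

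**Figure D2:**
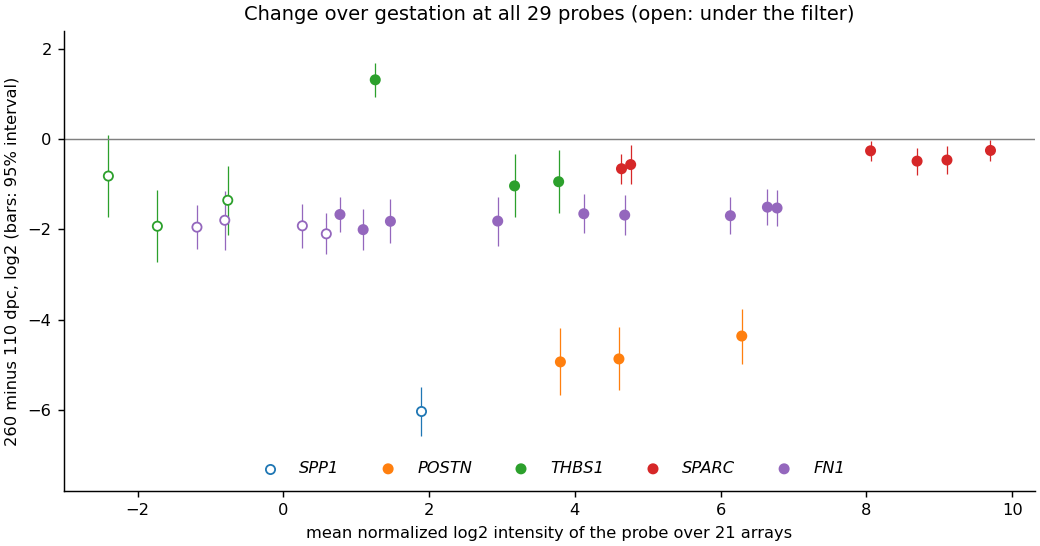
Difference of 260 from 110 dpc on the log2 scale (vertical axis, bars 95% interval of the limma fit) at each of the 29 probes, against the probe's mean normalized log2 intensity over the 21 arrays; filled points passed the filter. The 3 *POSTN* probes lie at −4.37 to −4.94, the 13 *FN1* probes at −1.51 to −2.10, and 1 *THBS1* probe lies above 0 at 1.32.

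Counted over the 4 genes that were not chosen for their fall, 3 passed from 110 to 260 dpc (*POSTN*, *FN1* and *THBS1*), and all 3 fell. In that comparison 64.1% of all tested probes passed, and 30.8% passed as lower at 260 dpc, while the median difference over all tested probes was 0.04. Of the probes that passed, 52% were higher at 260 dpc, against 60.2% with each array centred on its median and 22.9% in the authors' unscaled values, where the median difference was 0.13 and −0.37. Passing in this comparison was therefore common on the array. From 110 to 180 dpc 0 of the 4 passed, with 1 at an unadjusted limma p under 0.05, where 24% of tested probes passed. From 180 to 210 dpc 1 of the 4 passed (*POSTN*), against 9.68% of tested probes. From 210 to 260 dpc all 4 passed, against 44.7% of tested probes. In this step and from 110 to 260 dpc, 1 tested *THBS1* probe passed as higher. The share of passing probes that were higher at the later stage also moved with the processing. From 210 to 260 dpc it was 55.5%, against 69.5% with median scaling and 7.56% in the authors' unscaled values. From 110 to 180 dpc it was 52.3%, against 70.2% in those values, and from 180 to 210 dpc 55.3%, against 67.9% there and 69.8% with the slide as a fixed term.

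The order of the groups was read from their means. In *SPP1* the means went from CH and BA of 110 dpc through BA and CH of 180 dpc, CH and BA of 210 dpc to CH and BA of 260 dpc. Its neighbours overlapped only among the 2 groups of 110 dpc, between BA of 110 and BA of 180 dpc, and among the 2 groups of 260 dpc. In *POSTN* and *FN1* the groups were also ordered by stage, and within each stage the breeds overlapped except for *FN1* at 180 dpc. In *THBS1* and *SPARC* the highest mean was that of CH at 180 dpc, at 4.35 and 9.92, and the order of the groups did not follow the stages.

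In the breed comparisons, 0 of the 5 genes passed on average over the stages, at any single stage or in the difference between the breeds' changes from 110 to 260 dpc. At an unadjusted limma p under 0.05 there was 1 gene at 210 dpc (*SPP1*) and 0 elsewhere. The background was low: 0.358% of the tested probes passed on average, 0.273% at 110 dpc, 0.00993% at 180 dpc, and 0% at 210 dpc, at 260 dpc and in the difference between the changes. At an unadjusted p under 0.05 there were 2512 tested probes on average and 1054 at 210 dpc. The average was negative in all 5 genes, from −0.37 to −0.05, while the median over all tested probes was −0.01. For the 4 genes other than *SPP1*, the differences lay between −0.32 and 0.07 at 110 dpc and between −0.04 and 0.14 at 260 dpc. The 95% intervals were wide: for *THBS1* at 180 dpc the interval ran from −1.93 to 0.04, so that these data allow BA to be far lower or level with CH.

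**Figure D3:**
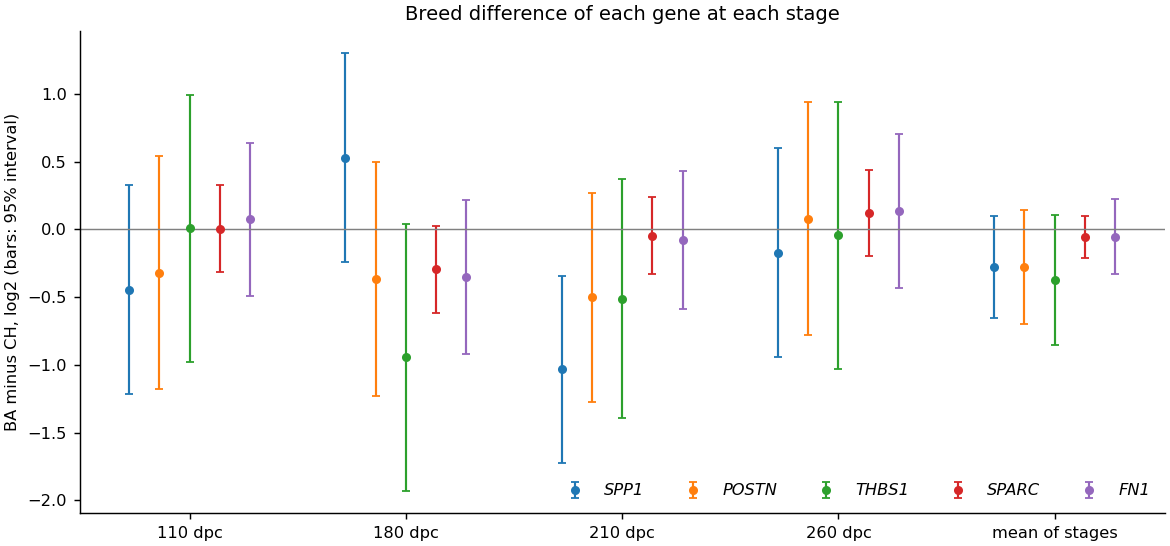
BA minus CH on the log2 scale (vertical axis, bars 95% interval of the limma fit) for each gene at each stage and averaged over the stages. Among the intervals drawn only that of *SPP1* at 210 dpc, −1.72 to −0.34, leaves out 0, and no difference passed after adjustment.

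The genes whose levels ran most like *SPP1* over the 21 arrays were sought among 7928 named genes with a tested probe. They were *PLD3* (Pearson r = 0.983), a phospholipase D family member of lysosomes, *BASP1* (0.980), a membrane protein of growing nerve endings, *PCGF2* (0.977), a Polycomb subunit, *TLE3* (0.975), a transcriptional corepressor, and *MAGED2* (0.974). The points share stage and array, and 407 of the 7928 genes had r above 0.9 with *SPP1*. All 5 fell from 110 to 260 dpc, by 1.73, 2.72, 1.36, 1.19 and 1.57, which follows from choosing them by r with a gene that falls. These falls were smaller than that of *SPP1*, which was itself chosen for its steepness. At 210 dpc their BA minus CH differences were −0.18 to −0.01, against −1.03 in *SPP1*. Among the members r with *SPP1* was 0.969 for *POSTN*, 0.868 for *FN1*, 0.546 for *THBS1* and 0.509 for *SPARC*.

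Of 18 cell surface receptors listed for these proteins, 15 had a probe and 12 were tested. Binding of each to the members was not examined here. Of the 12, 5 rose and 4 fell from 110 to 260 dpc, with a median difference of 0.13. Over all tested probes 64.1% passed in this comparison, 30.8% as lower, so the share of receptors that passed was near the background. *CD36*, a receptor of thrombospondin-1 and of fatty acids, rose by 2.23 (SE 0.0891, limma adjusted p = 2.21e-12). *CACNA2D1*, a calcium channel subunit to which thrombospondins bind, rose by 1.58 and the integrin chain *ITGB6* by 0.64. *CD44*, the hyaluronan receptor that also binds osteopontin, fell by 1.21 (SE 0.138, limma adjusted p = 6.91e-07), *ROBO1*, a guidance receptor, by 1.55 and the integrin chain *ITGA9* by 0.65. The other integrin chains that passed were *ITGAV*, which rose by 0.47, *ITGA5*, which rose by 0.42, and *ITGB1*, which fell by 0.47. *ITGB5* differed by 0.32 (limma adjusted p = 0.119). *ITGB3*, *SDC1* and *ITGA4* were under the filter and differed by −0.39, −3.25 and −1.80. They were well above background on 21, 21 and 3 of 21 arrays. The calcium channel and *CD36* are also known from muscle fibres and their vessels, and of the 6 muscle markers 4 rose and 2 fell in the same arrays, with a mean of the list of 8.46 to 9.01 at 110 dpc and 10.03 to 10.17 at 260 dpc. The markers that fell were *MYH3*, embryonic myosin, by 0.83 and *MYOG*, the myogenic factor myogenin, by 0.78. Their part in these changes was not tested.

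Of 30 other matricellular and associated glycoproteins, 27 had a probe and 19 were tested, of which 2 rose and 8 fell, with a median difference of −0.47, against 64.1% of all tested probes that passed and 30.8% that passed as lower. *THBS3*, a further thrombospondin, fell by 2.76 (SE 0.142, limma adjusted p = 3.66e-11), *CCN3*, a cysteine-rich growth regulator, by 1.81 and *EFEMP2*, which helps assemble elastic fibres, by 1.78. Against these, *MGP*, the matrix Gla protein that restrains calcification, rose by 3.79 (SE 0.365, limma adjusted p = 8.9e-08), and *CCN1* rose by 1.84. *IBSP*, the bone relative of osteopontin, stands in this list as well as among the bone markers.

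Of 17 TGF-beta ligands, latency proteins, receptors and mediators, 14 had a probe and 10 were tested, of which 1 rose and 4 fell, with a median difference of −0.15. The background was again 64.1% passing and 30.8% lower, so falls were not much more common in the list than on the array. The ligands *TGFB3* and *TGFB2* fell by 1.65 and 1.33, and *LTBP3*, which holds the latent ligand in the matrix, fell by 1.31. The receptor *TGFBR2* rose by 0.34 (SE 0.127, limma adjusted p = 0.0262). *TGFB1* was under the filter.

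Of 20 genes of matrix assembly and processing, 17 had a probe and 13 were tested, of which 1 rose and 9 fell, with a median difference of −0.77, where 64.1% of all tested probes passed and 30.8% passed as lower. The lysyl oxidases *LOXL1* and *LOXL3*, which crosslink collagen and elastin, fell by 1.68 and 1.32, and the lysyl hydroxylase *PLOD2* by 1.56 (SE 0.11, limma adjusted p = 1.8e-09). *TGM2*, a transglutaminase that crosslinks fibronectin and osteopontin, rose by 1.22 (SE 0.11, limma adjusted p = 3.73e-08). *PCOLCE2* and *LOXL4* were under the filter and so outside these counts. Both were well above background on 21 of 21 arrays, and they differed by 3.85 and 2.15. *TLL1* and *ADAMTS14*, also under the filter, were well above background on 2 and 8 arrays and differed by −0.89 and −0.005. Over all tested probes the median was 0.04. No gene of these 4 lists passed in the average breed comparison, where 0.358% of all tested probes did.

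**Figure D4:**
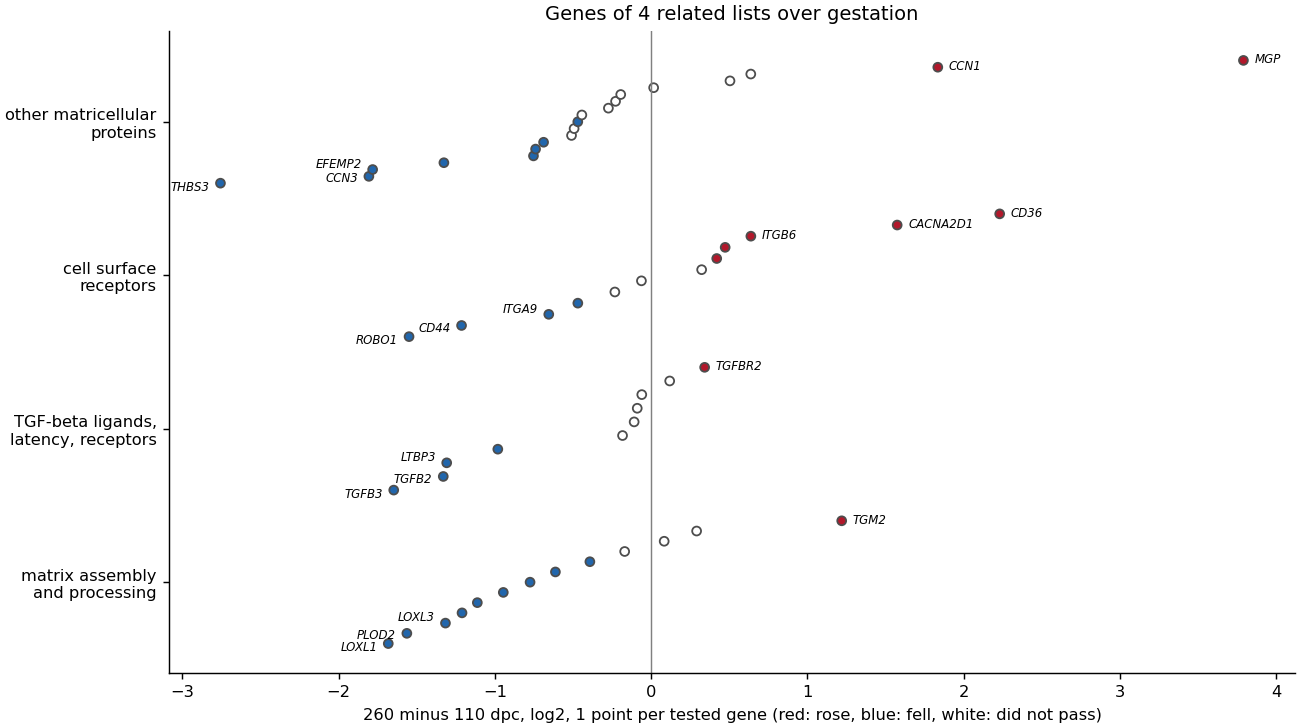
Difference of 260 from 110 dpc on the log2 scale (horizontal axis) of each tested gene in 4 related lists, 1 point per gene, coloured by whether it rose or fell past the threshold; up to 3 genes in each direction are named. Among these tested genes falls outnumber rises in 3 lists, and *MGP* (3.79) and *THBS3* (−2.76) lie farthest out. Genes under the filter, such as *PCOLCE2*, *LOXL4* and *SDC1*, are not drawn.

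Markers of other tissues differed in direction from 110 to 260 dpc, where 64.1% of all tested probes passed and 30.8% passed as lower. Of the 7 fibroblast and connective tissue markers, all tested, 6 fell, with a median of −0.61, and the mean level of the list went from 7.10 to 8.01 at 110 dpc to 6.43 to 7.12 at 260 dpc. *LUM*, lumican, fell by 1.44 and *COL1A2*, a type I collagen chain, by 0.99. Of the 4 tendon markers 3 had a probe; *TNMD*, tenomodulin, fell by 4.12 and *FMOD*, fibromodulin, by 1.57, and the mean level of the list was 2.24 to 5.54 at 110 dpc and 0.39 to 2.33 at 260 dpc. The cartilage collagen *COL2A1* fell by 3.77, and the mean level of the 3 cartilage markers with a probe was −0.56 to 3.01 at 110 dpc and −1.37 to 0.12 at 260 dpc. Among 5 endothelial markers 3 rose and 1 fell, and among 3 tested smooth muscle and pericyte markers *MYH11* rose by 2.73 and *ACTA2* fell by 1.63. The part of these tissues in the members' differences was not tested.

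**Figure D5:**
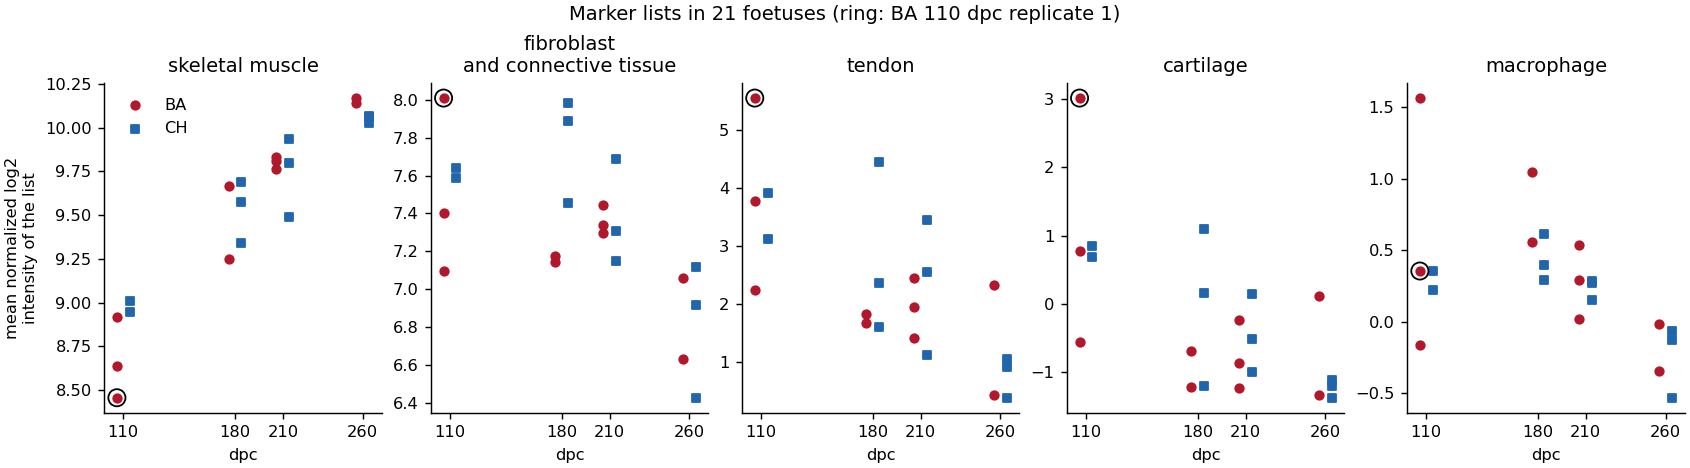
Mean normalized log2 intensity of 5 marker lists (vertical axis, own scale per panel) in each of the 21 foetuses against gestational age in dpc (BA circles, CH squares), with a ring around BA replicate 1 of 110 dpc. That foetus has the highest tendon (5.54) and cartilage (3.01) level of all 21, and the muscle list runs from 8.46 in that foetus to 10.17 at 260 dpc.

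A comparison made after these values were seen took the foetus with the highest tendon level at each stage: BA replicate 1 at 110 dpc, CH replicate 3 at 180 dpc, CH replicate 3 at 210 dpc and BA replicate 1 at 260 dpc. That foetus had the highest *SPARC* and the highest *THBS1* of its stage at 4 of 4 stages, and the highest *POSTN* and *FN1* at 3 of 4. For *SPP1* it was highest at 1 of 4 stages, at 110 dpc by 4.94 against 4.93, and at 260 dpc it ranked 4 of 5. The ranking was not particular to tendon markers. The 4 foetuses also had the highest cartilage level of their stages, at 3.01, 1.10, 0.14 and 0.12. Their fibroblast and connective tissue level was the highest at 110, 180 and 210 dpc, at 8.01, 7.98 and 7.69. At 260 dpc that level was 7.06, against 7.12 in the highest foetus. Leaving out these 4 foetuses leaves 1 BA foetus at 260 dpc, so only effect sizes are given. The difference of 260 from 110 dpc was then −5.84 for *SPP1*, −4.17 for *POSTN*, −1.52 for *FN1*, −0.90 for *THBS1* and −0.26 for *SPARC*. The tendon level of the remaining foetuses was 2.24 to 3.91 at 110 dpc and 0.39 to 1.05 at 260 dpc, so its fall stayed in the data. The parts of tendon, cartilage and other connective tissue in the members' differences were not tested. The BA minus CH difference of *SPP1* at 210 dpc was −1.31 with the same foetuses left out.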

How the data were processed

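The authors scanned single-colour arrays of 45220 spots and made the intensity values with Agilent Feature Extraction 10.7, with background and multiplicative detrending and no background subtraction. The study's methods mention normalization within and between arrays; the intensities showed no common scale, with 75th percentiles from 525 to 1174 units. The authors' log2 values, deposited for the same arrays, matched the log2 of these intensities within 0.01 for 99.98% of values, with no further scaling between arrays. Here 258 outlier spot values were left out, spots of a probe were averaged, each array's 75th percentile was subtracted on the log2 scale and 2.69 was added. The number of arrays limits the precision. No member value was missing or saturated.

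Probes were named by accession through the cattle annotation of ARS-UCD2.0; positions are left out because the design used an older assembly, and no sequences were used. The 8 breed and stage groups entered 1 linear model (limma 3.58.1, R 4.3.3; 13 residual and 3.79 prior degrees of freedom). A probe under the filter took its p from a fit over all probes. Foetuses are the replicates, and those of a breed share 2 sires. BA at 180 and at 260 dpc and CH at 210 dpc have 1 sire each. On simulated data with 200 of 20052 probes shifted, the breed comparison at 210 dpc recovered 76 of 100 shifts of 1 and 98 of 100 shifts of 2 on the log2 scale, with 10 false calls, and the comparison of 260 with 110 dpc 85 and 100, with 7. For the average breed comparison these were 95 and 100, with 15. The shifted probes were drawn from tested probes with a mean level over 2, and the shares recovered depend on the 200 shifts planted. *SPP1*, with a mean of 1.89 and under the filter, lay outside that set. The shares therefore do not give the chance of a call for *SPP1*.

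A gene is measured by its brightest probe. All members are named, the 5 genes with the highest r to *SPP1*, and per list up to 3 called genes in each direction; further genes were chosen after their values were seen. The members, lists and tests were chosen with earlier results of these data known. Alternatives were normexp (offset 50, on median signals), quantile normalization, median scaling, the authors' table, no filter or one on detection, an added term for sex, females only, blocks for slide, sire or replicate number, robust trended variances, the mean of a gene's probes, 1 stage or 1 breed alone, each array left out, and, added after the values were seen, 4 foetuses with high tendon markers left out.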

Additional observations from a re-analysis of the deposited data

How the results depend on the processing

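The differences of *SPP1*, *POSTN*, *FN1* and *THBS1* between 260 and 110 dpc were negative under every alternative run, and *POSTN* and *FN1* passed under each. For *SPP1* the value was −4.62 with normexp, −5.51 in females alone and −6.61 with slide as a fixed term, and −6.21 to −5.90 with single arrays left out. *THBS1* lost its call in females alone (−0.32), in BA alone (−0.97, limma adjusted p = 0.153), with the mean of its tested probes (−0.22), and without BA 260 replicate 2 or CH 110 replicate 2. *SPARC* passed with normexp, quantile normalization (−0.76), the authors' table (−0.64), sex as a covariate, slide or sire as a random block and the mean of its probes (−0.44), and did not with median scaling; it also passed without BA 110 replicate 2, BA 260 replicate 1, CH 180 replicate 2, or CH 210 replicate 1 or 3.

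From 110 to 180 dpc 1 of 4 genes passed in place of 0 with quantile normalization, females alone, slide as a random block or fixed term and the tendon-rich foetuses left out, and 0 to 1 with single arrays left out. From 180 to 210 dpc 0 passed in BA alone or CH alone. From 210 to 260 dpc 2 passed without a filter or in females alone, 1 in BA alone, and 2 to 4 with single arrays left out.

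Over 1100 breed values of the 5 genes, 0 passed and 75 had the other sign, with a lowest limma adjusted p of 0.138 (*THBS1* on average without BA 110 replicate 1). The average of *FN1* was 0.00019 in the authors' table and −0.13 to 0.026 with single arrays left out, and that of *SPARC* 0.0136 with quantile normalization and 0.000995 in the table. At 210 dpc *FN1* was 0.0118, *POSTN* 0.0979 and *SPARC* 0.151 in females alone, *SPARC* was 0.0135 with sex as a covariate, and *FN1* was 0.0844 and *SPARC* 0.0588 with the tendon-rich foetuses left out. With single arrays left out, *FN1* at 210 dpc was −0.18 to 0.0844, *SPARC* −0.16 to 0.0588, *SPP1* at 260 dpc −0.42 to 0.0172, and its difference between the breeds' changes −0.066 to 0.56.

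Over all probes, 4822 passed from 110 to 180 dpc but 1576 in the authors' table, 2262 in BA alone and 2050 in CH alone. From 180 to 210 dpc 1949 passed, but 249 in the table, 722 in females, 802 with slide as a fixed term, 401 in BA, 89 in CH, 979 without the tendon-rich foetuses and at least 1080 with single arrays left out. From 210 to 260 dpc 8991 passed, but 3435 in BA alone. The average breed comparison gave 72 probes, and 18 (slide as a fixed term) to 209 (sire as a block), or 25 (without BA 260 replicate 2) to 218 (without BA 110 replicate 1) with single arrays left out. At single ages the breed comparison gave 55 probes at 110 dpc (0 to 83 under other settings, 1 to 183 with single arrays left out), 2 at 180 dpc (0 to 12, 0 to 4), 0 at 210 dpc (0 to 5, 0 to 4) and 0 at 260 dpc (0 to 6, 0 to 31), and the difference between the breeds' changes gave 0 (0 to 3, 0 to 13). The causes were not tested.

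The replicate numbers did not pair the foetuses (median r of deviations 0.00905 over 66 pairs of the same number and −0.00913 over 126 others). With the replicate number as a block, *THBS1* from 110 to 260 dpc had an adjusted p of 0.00515, *SPARC* from 210 to 260 dpc was −0.253 (adjusted p = 0.0556), and the average breed comparison gave 45 probes. With 2 or 3 foetuses a group, the intervals are wide, and *SPP1* at 260 dpc lies near the dim end of the array.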
